A study of Homo sapiens with 4 samples.

Results

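The enzymes that make nicotinamide adenine dinucleotide (NAD), turn it into NADP or NADPH, or break it down were followed by 32 sgRNAs in a pooled CRISPR-Cas9 knockout screen of HCT116, a widely used human colorectal carcinoma cell line. The members were chosen by name, with earlier results of these data known. Of the 10 genes listed, the 8 analysed here were NMNAT1, NMNAT2, NMNAT3, QPRT, NADSYN1, NADK, NNT and BST1, with 4 sgRNAs each. NAMPT and CD38 were not analysed here. The count table held 7142 sgRNAs, of which all but 50 single-sgRNA entries targeted 1773 metabolic enzyme genes. Cells carrying the library received PBS (1 library) or oxaliplatin (10 µM), which forms platinum crosslinks in DNA, over 7 days (3 libraries, replicates 1 to 3), and the sgRNAs in the genomic DNA of the surviving cells were counted. All 4 libraries came from cells of this 1 line transduced with the same lentiviral library and selected with puromycin. No source used here says whether the 3 oxaliplatin libraries came from separate transductions, so p-values measure only the spread between these libraries.

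NAD carries electrons in metabolism and is also consumed as a substrate, so cells must keep making it. The de novo route starts from tryptophan and reaches nicotinic acid mononucleotide through QPRT, while the salvage routes start from nicotinamide, nicotinic acid or nicotinamide riboside. All routes pass through the NMNAT enzymes (nicotinamide mononucleotide adenylyl transferases), which join a mononucleotide to the adenylate part of ATP: NMNAT1 in the nucleus, NMNAT2 in the cytosol and Golgi, and NMNAT3 in mitochondria. NADSYN1 then amidates nicotinic acid adenine dinucleotide to NAD. NADK phosphorylates NAD to NADP in the cytosol, NNT passes hydride from NADH to NADP in the inner mitochondrial membrane, and BST1 (CD157), a relative of CD38 at the cell surface, cleaves NAD. The poly(ADP-ribose) polymerases, which act at DNA breaks, use NAD as their substrate.

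An sgRNA that became rarer under oxaliplatin than with PBS marks a knockout carried by a smaller share of the surviving cells, and one that became more frequent marks a knockout carried by a larger share. The libraries held between 8934799 (PBS) and 27563013 (oxaliplatin replicate 1) counts. Oxaliplatin replicates 2 and 3 were close to each other (Pearson's r of 0.96 across sgRNAs on log2(CPM + 1), where CPM is the count scaled to a fixed library total), whereas replicate 1 stood apart from both (0.63 and 0.65) and the PBS library stood apart from all 3 (0.39 to 0.55). The PBS library held no count of 1354 sgRNAs, against 2 to 164 in the oxaliplatin libraries. Every fold change given here rests on this 1 library labelled PBS, and whether its label and its missing sgRNAs are as the experiment intended was not tested. This split ran through the NAD enzymes: 8 of their 32 sgRNAs were at 0 in the PBS library and 13 had under 3 counts, compared with 27% of all sgRNAs under 3 counts. 15 of the 32 had at most 5 counts there and the other 17 had at least 300, with none in between. Replicate 1 differed over 4-fold in CPM from the mean of replicates 2 and 3 for 15 of the 32 sgRNAs (46.9%, against 51.9% of all sgRNAs), while replicates 2 and 3 differed that much for 1. Each value is therefore given for every library, and results are given with and without replicate 1. Counts from libraries of unlike depth are compared only after scaling: the log2 fold change of an sgRNA is log2 of its scaled count plus 1 in an oxaliplatin library over that in the PBS library, with the pair scaled by the median ratio, and it is given as mean ± SD over the 3 oxaliplatin libraries. The median of this value over all sgRNAs was -0.09, and 0.52 with TMM scaling or -0.29 with total counts. TMM scaling, which the edgeR tests used, raises replicate 1 most, so the direction of a well-counted sgRNA in replicate 1 can turn with the scaling. It did so between the median ratio and TMM for sgRNA_466, sgRNA_4093, sgRNA_4165, sgRNA_4187, sgRNA_6901 and sgRNA_6902, each below PBS in replicate 1 by the median ratio and above it with TMM.

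**Figure D1:**
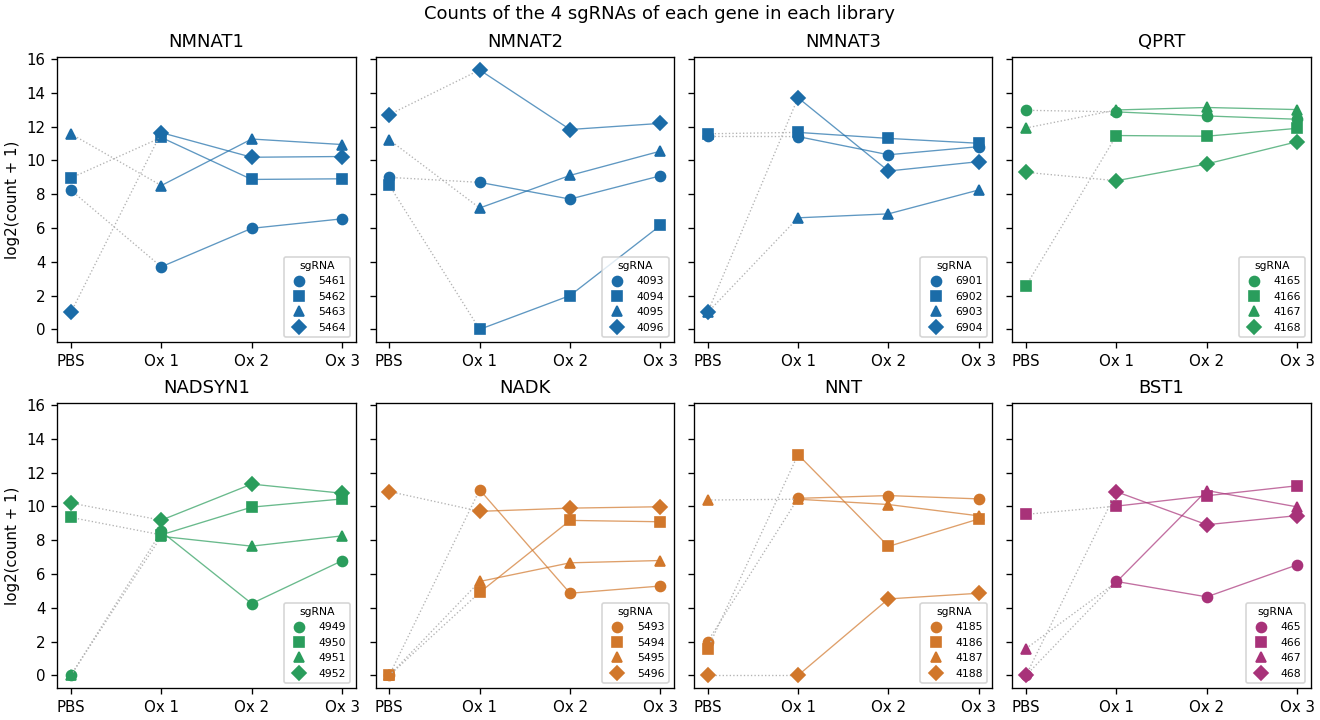
Counts of the 4 sgRNAs of each gene, as log2(count + 1), in the PBS library and oxaliplatin replicates 1 to 3 (Ox 1 to Ox 3); libraries are not scaled for depth, lines join the values of 1 sgRNA and the replicates have no order. In 7 of the 8 genes at least 1 sgRNA lies at 5 counts or fewer in the PBS library, and NMNAT2 is the exception.

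Among the NMNAT enzymes, the sgRNAs that were well counted with PBS were mostly rarer under oxaliplatin. The 3 that were nearly missing with PBS were more frequent. In the library, 25.9% of the sgRNAs with at least 30 PBS counts had a mean log2 fold change above 0. NMNAT1, the nuclear enzyme, had 3 well-counted sgRNAs. sgRNA_5461 had 300 counts with PBS and 12, 62 and 92 counts in oxaliplatin replicates 1, 2 and 3, a log2 fold change of -3.33 ± 1.66 (SD, n = 3). It was lower in all 3 oxaliplatin libraries than with PBS after scaling. For sgRNA_5463, 3031 counts with PBS stood against 363, 2452 and 1956 (-1.85 ± 1.70), also lower in all 3. sgRNA_5462 did not separate the groups: 496 counts with PBS stood against 2616, 467 and 479, so that replicate 1 was above PBS and the other two slightly below it (0.24 ± 1.24), with replicate 2 level with PBS under TMM scaling (0.03). The fourth NMNAT1 sgRNA ran the opposite way. sgRNA_5464 had 1 count with PBS and 3186, 1161 and 1197 under oxaliplatin, a mean ratio of 1233 with a 95% interval of 221 to 48704 from the counting error of the single PBS count. In edgeR's quasi-likelihood test over all sgRNAs its log2 fold change was 10.88 (SE 2.14, adjusted p = 0.0416). The median over the 4 NMNAT1 sgRNAs was -1.06, -0.52 and -0.84 in the 3 oxaliplatin libraries.

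NMNAT2 was the only member with all 4 sgRNAs well counted with PBS, and it had the lowest median of the 8 genes, at -2.89, -2.01 and -1.10 in replicates 1, 2 and 3. Over well-counted sgRNAs alone, the median was -1.90 for NMNAT2, -1.85 for NMNAT1, -0.92 for NMNAT3 and -1.53 for the 1 such sgRNA of NADK. The median over all well-counted sgRNAs of the library was -0.96. sgRNA_4094 had the lowest log2 fold change of the 32, with 369 counts for PBS and 0, 3 and 70 in the oxaliplatin libraries (-6.21 ± 3.07). The 3 libraries agreed in direction and differed widely in size. sgRNA_4095 went from 2372 counts with PBS to 144, 551 and 1492, with a log2 fold change of -2.78 ± 1.82. sgRNA_4093 had 508 counts with PBS and 414, 208 and 542 under oxaliplatin (-1.01 ± 0.60). By the median ratio these 3 sgRNAs were each lower in all 3 oxaliplatin libraries, while with TMM sgRNA_4093 was level with PBS in replicate 1 (0.06). The exception was sgRNA_4096, the most abundant of the 4, with 6675 counts with PBS and 41642, 3624 and 4658 under oxaliplatin. It was far above PBS in replicate 1, where it held 98.7% of all NMNAT2 counts, and below PBS in replicates 2 and 3.

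NMNAT3, the mitochondrial enzyme, was split evenly between both directions. sgRNA_6901 had 2728 counts with PBS and 2713, 1286 and 1792 under oxaliplatin, and sgRNA_6902 had 3040 counts with PBS and 3220, 2516 and 2060. By the median ratio both were lower than with PBS in every oxaliplatin library (-1.08 ± 0.33 and -0.77 ± 0.26), but with TMM both were higher in replicate 1 (0.35 and 0.44) and lower only in replicates 2 and 3. The other two were at 1 count with PBS: sgRNA_6903 reached 96, 113 and 303 counts and sgRNA_6904 reached 13332, 660 and 969 counts under oxaliplatin. Neither passed edgeR's test (adjusted p = 0.0986 and 0.0952). The gene's median of 2.54 ± 0.35 therefore lay between the pair near -1 and the pair at 5.84 and 9.61, where no sgRNA of NMNAT3 was.

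The well-counted sgRNAs of the de novo enzymes had a median log2 fold change of -0.29, above the -0.96 of all well-counted sgRNAs in the library. QPRT, which makes nicotinic acid mononucleotide from quinolinate, held the most counts of the 8 genes with PBS. sgRNA_4165 had 7972 counts with PBS and 7466, 6322 and 5519 under oxaliplatin, lower in all 3 libraries by the median ratio and with a lower SD than any other of the 32 with 3 values (-0.84 ± 0.19). With TMM it was higher in replicate 1 (0.26). sgRNA_4167 went the other way, from 3859 counts with PBS to 8078, 8937 and 8206 (0.61 ± 0.28). In CPM, replicate 1 of sgRNA_4167 was below PBS and the other two were above it, so its direction in replicate 1 depends on the scaling. sgRNA_4168 had 625 counts with PBS and 443, 882 and 2199 under oxaliplatin (0.09 ± 1.27), on both sides of PBS. sgRNA_4166 had 5 counts with PBS and 2830, 2754 and 3804 under oxaliplatin, a mean ratio of 440 (95% counting interval 189 to 1355) and an edgeR log2 fold change of 9.33 (SE 1.57, adjusted p = 0.0416). Its 3 oxaliplatin libraries lay close together.

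NADSYN1, the glutamine-dependent NAD synthetase, had 2 well-counted sgRNAs that overlapped PBS. sgRNA_4950 had 649 counts with PBS and 317, 990 and 1384 under oxaliplatin, and sgRNA_4952 had 1171 counts with PBS and 579, 2547 and 1752. Each was below PBS in replicate 1 and above it in replicates 2 and 3, with means of -0.29 ± 1.28 and -0.29 ± 1.31. The remaining pair was at 0 with PBS. sgRNA_4951 reached 298, 199 and 304 counts under oxaliplatin, at least 60.0-, 53.1- and 71.5-fold above a floor of 3 counts in the PBS library. The edgeR test called it higher (adjusted p = 0.0496). sgRNA_4949 reached 364, 18 and 109 counts, a wider spread, and did not pass (adjusted p = 0.128).

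NADK and NNT are grouped here as the NADP-forming enzymes, although NNT passes hydride to NADP that already exists. They had 6 of 8 sgRNAs at 3 counts or fewer with PBS. NADK had 3 sgRNAs at 0 with PBS: sgRNA_5493 reached 2017, 28 and 38 counts under oxaliplatin, sgRNA_5494 reached 29, 574 and 543, and sgRNA_5495 reached 46, 100 and 110. All were above the PBS library in all 3 oxaliplatin libraries, yet replicate 1 held the highest value of the first and the lowest of the other two, and none of the NADK sgRNAs passed the test (adjusted p of 0.173, 0.0829 and 0.0938 for these 3). The only well-counted sgRNA of NADK, sgRNA_5496, had 1879 counts with PBS and 833, 950 and 1006 under oxaliplatin. It was lower in all 3 libraries, by similar amounts (-1.53 ± 0.32, adjusted p = 0.590).

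For NNT, the mitochondrial transhydrogenase, sgRNA_4185 had 3 counts with PBS and 1420, 1591 and 1388 under oxaliplatin. Its mean ratio was 346 (95% counting interval 118 to 1677), and edgeR called it higher with a log2 fold change of 8.98 (SE 1.60, adjusted p = 0.0416). sgRNA_4186, at 2 counts with PBS, reached 8535, 197 and 609 counts, most of them in replicate 1, and did not pass (adjusted p = 0.123). The scarcest sgRNA of NNT was sgRNA_4188, at 0 with PBS and in replicate 1 and at 22 and 28 counts in replicates 2 and 3. sgRNA_4187, the only well-counted one, had 1325 counts with PBS and 1370, 1102 and 692 under oxaliplatin, and was lower in all 3 by the median ratio (-0.90 ± 0.47) but higher in replicate 1 with TMM (0.40).

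BST1 was the only NAD-consuming member analysed. 3 of its 4 sgRNAs had at most 2 counts with PBS and so could hardly be lower under oxaliplatin. The well-counted sgRNA_466 was not lower in all 3 oxaliplatin libraries under any of the 3 scalings. In BST1, sgRNA_468 rose from 0 counts with PBS to 1865, 481 and 699, at least 375-, 128- and 165-fold above the floor (edgeR adjusted p = 0.0428). sgRNA_467 had 2 counts with PBS and 45, 1957 and 999 under oxaliplatin, with replicate 1 far below the other two (adjusted p = 0.107). sgRNA_465 went from 0 to 46, 24 and 92 counts, all low values that did not pass (adjusted p = 0.128). The well-counted sgRNA_466 had 736 counts with PBS and 1031, 1579 and 2379 under oxaliplatin, which lay above PBS in replicates 2 and 3 under each scaling (0.58 ± 0.74 over the 3 libraries by the median ratio). Replicate 1 of sgRNA_466 had no settled direction, at -0.24 by the median ratio, -1.14 with total counts and 0.84 with TMM.

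**Figure D2:**
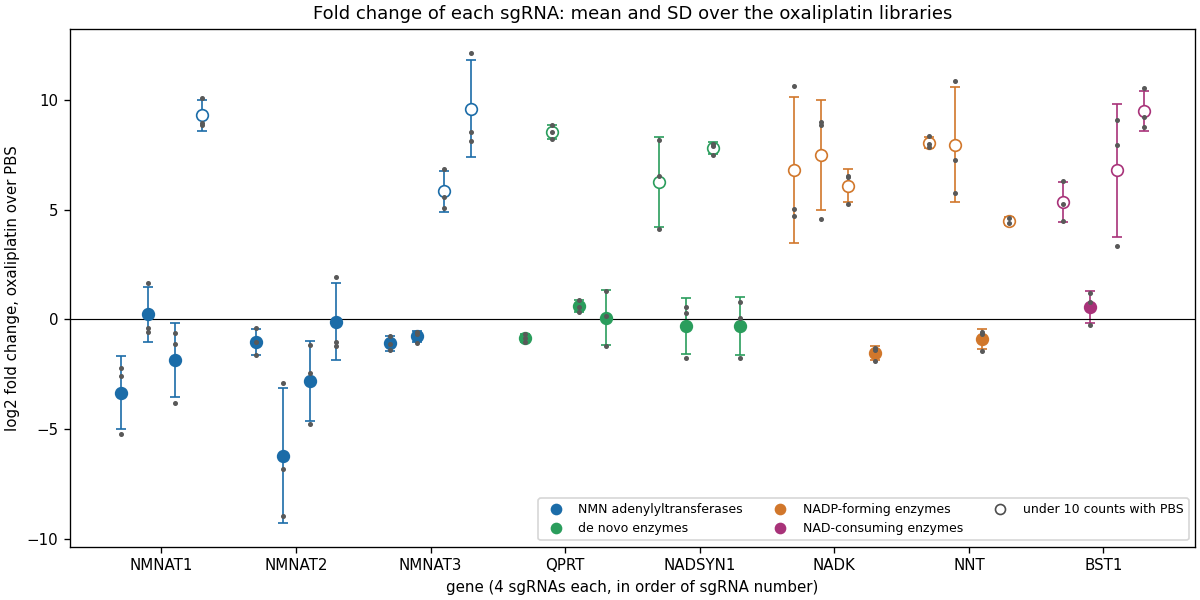
Log2 fold change of each of the 32 sgRNAs over PBS, with small points for the oxaliplatin libraries, large circles for their mean and bars for the SD (n = 3, or 2 for sgRNA_4188), grouped by gene and coloured by class. Open circles mark sgRNAs under 10 counts with PBS, and all 15 of them lie above 0, while 4 of the 17 filled circles do.

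edgeR called 5 of the 32 sgRNAs higher under oxaliplatin with all libraries (adjusted p below 0.05 over all sgRNAs tested), against 8.37% of all sgRNAs, and called 0 lower, against 0% of all sgRNAs. The 5 lay in 5 genes: sgRNA_5464 of NMNAT1, sgRNA_4166 of QPRT, sgRNA_4951 of NADSYN1, sgRNA_4185 of NNT and sgRNA_468 of BST1. At an unadjusted p below 0.05, 14 were higher and 0 lower (25.8% and 1.45% of all sgRNAs), and DESeq2 called 14 higher and 0 lower (28.4% and 0.406% of all sgRNAs). All 5 had at most 5 counts with PBS. With total-count scaling edgeR called 0, as it did among all sgRNAs (12 higher at an unadjusted p below 0.05, against 20.6% of all sgRNAs), and with only the sgRNAs of at least 3 PBS counts it called 0 of 19 and 0 of all 5216 (2 higher at an unadjusted p below 0.05, against 5.64% of those sgRNAs). Without replicate 2 it called 6 higher, with 4 of the 5 among them (8.54% of all sgRNAs), and without replicate 3 it called 4, with 2 of the 5 among them (4.23%). By plain order of CPM, the PBS library was below all 3 oxaliplatin libraries for 14 of the 32 sgRNAs (35.2% of all sgRNAs), above all 3 for 10 (38.1%) and among them for 8. All 14 of the first kind had at most 5 counts with PBS. Of the 10 above, 7 belonged to NMNAT1, NMNAT2 or NMNAT3, which held 9 of the 17 well-counted member sgRNAs.

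The direction of a member followed its PBS count, as it did for the library as a whole. The 15 sgRNAs with at most 5 counts with PBS had a median log2 fold change of 7.48 and all were above 0. Among all sgRNAs under 10 counts with PBS, 2140 of 2142 were above 0, with a median of 7.17. The 17 well-counted sgRNAs had a median of -0.84 and 4 were above 0 (23.5%), against a median of -0.96 and 25.9% above 0 for the 4958 sgRNAs of the library with at least 30 counts. The PBS count is also the denominator of each fold change.

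**Figure D3:**
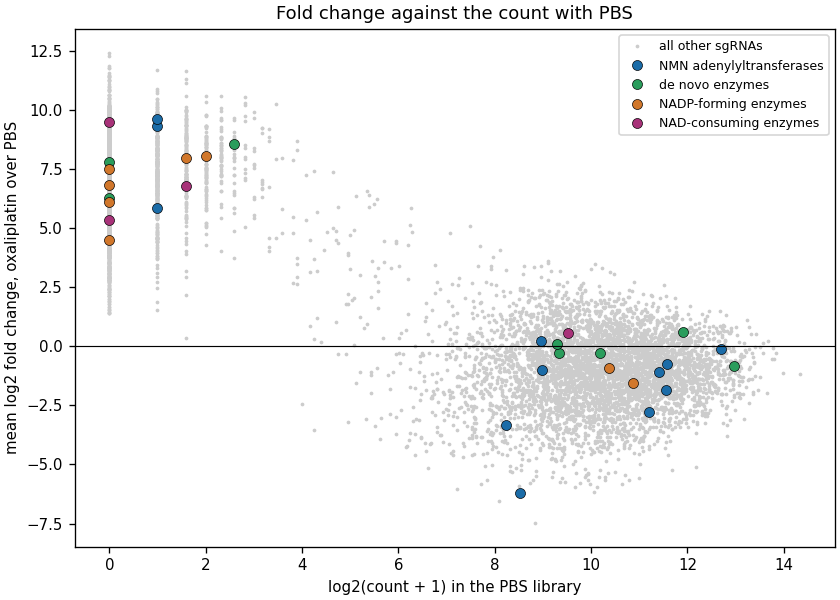
Mean log2 fold change over the oxaliplatin libraries against log2(count + 1) in the PBS library, for the 32 sgRNAs (coloured by class) and all others (grey). The 32 fall into both clouds of the library: 15 at 5 counts or fewer with a median of 7.48, and 17 at 300 counts or more with a median of -0.84.

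The order of the classes ran with this same property. The median log2 fold change was -0.89 for the 12 sgRNAs of the NMNAT enzymes, 0.35 for the 8 of the de novo enzymes, 6.45 for the 8 of the NADP-forming enzymes and 6.07 for the 4 of BST1. With a pseudocount of 10 in place of 1, these last medians were 3.36 and 3.69, so neither their size nor their order is settled. The shares of sgRNAs under 10 counts with PBS ran in step with it, at 25%, 37.5%, 75% and 75%. Kept to the well-counted sgRNAs, the medians were -1.08 (9 sgRNAs), -0.29 (5), -1.22 (2) and 0.58 (1), so the NADP-forming class moved from the top of the order to the bottom. Among these, all 9 sgRNAs of the NMNAT enzymes were below 0 in both replicates 2 and 3, and 7 of 9 in all 3 libraries. Both sgRNAs of the NADP-forming enzymes were below 0 in all 3 libraries, as were 1 of 5 of the de novo enzymes and 0 of 1 of BST1. In the library as a whole, 66.1% of well-counted sgRNAs were below 0 in replicates 2 and 3, and 52.1% in all 3. With total-count scaling these class counts were the same (62.0% and 54.9% of the library). With TMM, an alternative for these counts chosen after the data were seen, the NMNAT enzymes had 8 of 9 below 0 in replicates 2 and 3 and 4 of 9 in all 3 (53.8% and 37.2% of the library), the NADP-forming enzymes 1 of 2 in all 3 and the de novo enzymes 0 of 5. The members of a class share genes, and sgRNAs of 1 gene share their target, so these counts describe the sgRNAs and carry no test between classes.

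Without replicate 1, edgeR made many more calls in the library and among the members. The fit then rests on replicates 2 and 3 against 1 PBS library assumed to vary like them. It called 17 of the 32 sgRNAs higher (38.2% of all sgRNAs) and 3 lower (15.5%), and the 5 calls made with all libraries were among the 17. The 17 were the 15 scarce sgRNAs and 2 well-counted ones: sgRNA_466 of BST1 (log2 fold change 1.44, SE 0.49, adjusted p = 0.00777) and sgRNA_4168 of QPRT (1.28, SE 0.49, adjusted p = 0.0193). In this fit, 678 of the 4958 well-counted sgRNAs of the library were called higher and 1101 lower. Of the 2142 sgRNAs under 10 counts with PBS, 2000 were called higher and 0 lower. With 9 of the 17 well-counted member sgRNAs in the NMNAT enzymes, all 3 lower member sgRNAs targeted these enzymes. They were sgRNA_4094 (-3.42, SE 0.81, adjusted p = 8.95e-05) and sgRNA_4095 (-1.24, SE 0.44, adjusted p = 0.0116) of NMNAT2 and sgRNA_5461 of NMNAT1 (-1.94, SE 0.78, adjusted p = 0.0259). The median over all sgRNAs was 0.44 in this fit and 0.86 in the fit with all libraries. With total-count scaling and without replicate 1, a setting chosen after the data were seen, 16 were called higher and 6 lower (35.2% and 21.2% of all sgRNAs). sgRNA_4168 was then no longer called (adjusted p = 0.0887), while sgRNA_466 and the 3 lower sgRNAs still were.

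Summing the counts of the 4 sgRNAs of a gene gives most weight to the abundant sgRNAs. The orders below are in CPM, and with TMM only those of BST1, NNT, NMNAT2 and NMNAT3 were the same. How often all gene entries take such orders was not counted, so the orders alone do not set these genes apart. The 32 sgRNAs together held 4225 CPM with PBS and 3822, 4227 and 4259 CPM in oxaliplatin replicates 1, 2 and 3. BST1 had 82.6 CPM with PBS and 108, 385 and 374 CPM under oxaliplatin, above PBS in all 3. Its well-counted sgRNA_466 had 82.4 CPM with PBS and 37.4, 150 and 213 CPM under oxaliplatin. The rest came from sgRNAs with at most 2 PBS counts. NNT had 149 CPM with PBS and 411, 277 and 244 CPM, also above PBS in all 3. That rise came from sgRNAs nearly missing with PBS, as the well-counted sgRNA_4187 had 148 CPM with PBS and 49.7, 105 and 62.1 CPM under oxaliplatin. NADK ran lower in all 3, with 210 CPM against 106, 157 and 152 CPM, and so did NMNAT1, with 428 CPM against 224, 395 and 334 CPM. NMNAT2 had 1111 CPM with PBS and 1531, 418 and 607 CPM under oxaliplatin, with replicate 1 alone above PBS through sgRNA_4096. For NMNAT3 the values were 646 CPM with PBS and 702, 436 and 460 CPM, again with replicate 1 alone above PBS. QPRT and NADSYN1 showed the reverse, with replicate 1 alone below PBS (1395 CPM against 683, 1800 and 1770 CPM, and 204 CPM against 56.5, 358 and 318 CPM).

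**Figure D4:**
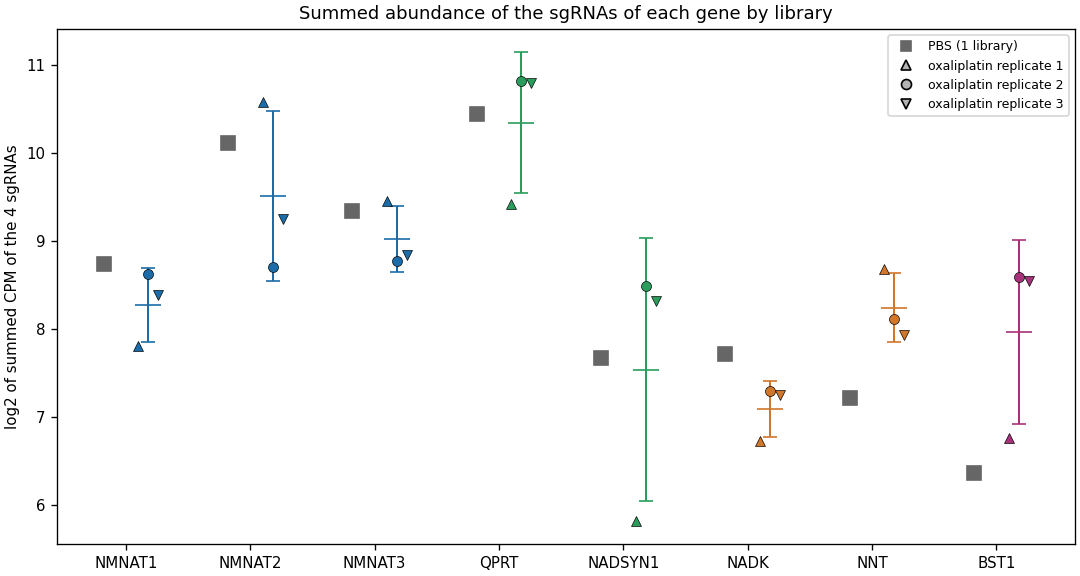
Summed CPM of the 4 sgRNAs of each gene on a log2 axis, with squares for the PBS library, other symbols for the 3 oxaliplatin libraries and bars for their mean ± SD on that scale. BST1 and NNT lie above PBS in all 3 oxaliplatin libraries, and NMNAT1 and NADK below it in all 3. Replicate 1 lies on the other side of PBS from replicates 2 and 3 for the remaining genes. With TMM the orders of NMNAT1, NADK, QPRT and NADSYN1 differ. The share of all gene entries with such orders was not counted.

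edgeR on the summed counts called 0 of the 8 genes with all libraries, as it called 0% of all 1823 gene entries (85 higher and 33 lower at an unadjusted p below 0.05). BST1 came closest among the members (log2 fold change 2.01, SE 0.74, adjusted p = 0.709 in edgeR), and it was the 1 member called by DESeq2 (6.75% of all entries called higher and 2.03% lower). Without replicate 1, 22.9% of all entries were called higher and 18.2% lower, and 4 members were called. BST1 was higher by 2.27 (SE 0.36, adjusted p = 2.85e-07), NNT by 0.88 (SE 0.36, adjusted p = 0.0451) and NADSYN1 by 0.80 (SE 0.32, adjusted p = 0.0391), while NMNAT2 fell by 1.06 (SE 0.24, adjusted p = 0.000303). NMNAT1, NMNAT3, QPRT and NADK did not pass. The sums of BST1, NNT and NADSYN1 include sgRNAs nearly missing with PBS, and the well-counted sgRNA_4187 of NNT was below PBS in replicates 2 and 3. With total-count scaling and without replicate 1, BST1 (2.20, adjusted p = 0.00345) and NMNAT2 (-1.12, adjusted p = 0.0136) passed (18.5% of all entries called higher and 15.9% lower), and NNT and NADSYN1 did not (adjusted p = 0.105 and 0.0939).

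Genes on either side of these enzymes gave a background within the pathway. Of the further genes listed by pathway, 26 were analysed with 104 sgRNAs, and edgeR with all libraries tested 103, calling 7 higher and 0 lower, against 8.37% and 0% of all sgRNAs. The 8 kynurenine pathway genes, which turn tryptophan into quinolinate upstream of QPRT or divert it, had 4 of these calls: 1 sgRNA each of AFMID, IDO1, IDO2 and KYNU. Their gene medians ran from -2.42 ± 1.27 for KMO, the kynurenine hydroxylase, to 6.77 ± 2.63 for IDO2, a tryptophan dioxygenase with 3 sgRNAs under 3 counts with PBS. The 10 NADPH-regenerating dehydrogenases had the other 3, in ALDH1L1, H6PD and ME3, and ran from -2.90 ± 1.03 for IDH1, the cytosolic isocitrate dehydrogenase, to 4.68 ± 2.28 for ALDH1L2, a mitochondrial formyltetrahydrofolate dehydrogenase that also had 3 sgRNAs under 3 counts. All 7 called sgRNAs had at most 9 counts with PBS.

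Genes that handle nicotinate and nicotinamide (4 analysed) and enzymes that cleave NAD or its relatives (4 analysed) had no call with all libraries, at 3 of 16 and 4 of 16 sgRNAs higher and 0 lower at an unadjusted p below 0.05, against 25.8% and 1.45% of all sgRNAs. In the first list the medians ran from -0.32 ± 0.26 for NAPRT, which starts salvage from nicotinic acid, to 1.91 ± 0.43 for AOX1, an aldehyde oxidase. In the second they ran from -2.26 ± 1.08 for ENPP1, an ectonucleotide pyrophosphatase, to 3.49 ± 0.32 for NUDT12, a Nudix hydrolase of NADH. AOX1 had no sgRNA near its median: its well-counted sgRNAs lay at -0.26 and -2.87, and those nearly missing with PBS at 4.96 and 4.91. Without replicate 1, 32 of the 103 sgRNAs tested were called higher and 22 lower, against 38.2% and 15.5% of all sgRNAs. On summed counts, 3 of these 26 genes were then called higher (ME3, IDO2 and ALDH1L2) and 8 lower (TDO2, KMO, PGD, IDH1, MTHFD1, NUDT12, ENPP1 and ENPP3), against 22.9% and 18.2% of all entries. The only well-counted sgRNA of IDO2, sgRNA_6553, had 708 counts with PBS and 4, 18 and 69 under oxaliplatin. That of ALDH1L2, sgRNA_6518, had 640 counts with PBS and 83, 186 and 292 under oxaliplatin. In replicates 2 and 3, the well-counted sgRNAs of ME3 lay at -1.25 and -1.74 (sgRNA_3910) and at 2.61 and 2.06 (sgRNA_3912). NUDT12 had a positive median over its sgRNAs and a lower sum (-0.93, adjusted p = 0.00815), since 2 of its 4 sgRNAs were at 0 with PBS and the other two held all of its PBS counts.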

How the data were processed

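The authors amplified the sgRNA region from genomic DNA by PCR and deposited raw counts of reads per sgRNA, per library and as 1 table, with equal values (100% of sgRNAs in each library). MAGeCK is the tool that the submitters' processing notes name, without a version, and how reads were matched and counted was not stated. Members, lists, naming rule (every member sgRNA, the lowest and highest gene of each further list and any list gene with an edgeR call) and alternatives were chosen with earlier results of these data known.

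Fold changes used MAGeCK's median ratio per pair of libraries and added a pseudocount of 1 to each count. Where both libraries of a pair held 0, the sgRNA got no value there. A gene took the median over its sgRNAs. sgRNAs and gene sums were tested over the whole table with edgeR 4.0.16 (TMM scaling, filterByExpr, quasi-likelihood, Benjamini-Hochberg adjustment, threshold 0.05) in R 4.3.3. The test takes the spread of the single PBS library to equal that among oxaliplatin libraries. Each SE was derived from this test, as the absolute log2 fold change over the square root of the F statistic. DESeq2 1.42.0 was an alternative. Other steps used pandas 2.3.3, numpy 2.4.6, matplotlib 3.10.9 and scipy 1.17.1 in Python 3.11.15. Reads from PCR carried no molecular identifiers and may copy 1 molecule many times, so intervals (95%, exact Poisson) and floors (3 counts, 0.336 CPM in the PBS library) cover counting error only. Mean depth was 1251 counts per sgRNA with PBS and 3859, 1469 and 1561 in oxaliplatin replicates 1, 2 and 3. Checked on simulated counts of 7142 sgRNAs for oxaliplatin over PBS, edgeR called 50% of sgRNAs raised 4-fold, 80% of those lowered 4-fold and 100% of those raised or lowered 64-fold at a dispersion of 0.1, and 0% of any at a dispersion of 1. The changed sgRNAs were drawn from abundant ones only. The check therefore did not cover sgRNAs nearly missing with PBS, where all member calls with all libraries lay. The common dispersion of the deposited counts was 0.795 with all libraries and 0.111 without oxaliplatin replicate 1.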

Additional observations from a re-analysis of the deposited data

How the results depend on the processing

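The count of sgRNAs called higher (5) was 0 with total-count scaling, 14 with DESeq2, 0 with only sgRNAs of at least 3 PBS counts and 4 to 17 on leaving out 1 oxaliplatin replicate (17 without replicate 1). The count called lower (0) ranged from 0 to 3 on leaving out 1 replicate (3 without replicate 1), and genes called on sums (0) numbered 1 with DESeq2 and 0 to 4 (4 without replicate 1). With total-count scaling and without oxaliplatin replicate 1 together, an alternative added after the data were seen, these counts were 16, 6 and 2. The median of the NMNAT enzymes (-0.89) was -1.10 with total-count scaling, -0.28 with TMM scaling, -1.08 with at least 30 PBS counts and 0.65 as a mean over sgRNAs. For the de novo enzymes (0.35) the mean was 2.74. The NADP-forming median (6.45) was 3.36 with a pseudocount of 10, 4.56 with counts under 3 set to 3, -1.22 with at least 30 PBS counts, 4.81 as a mean and 5.69 to 6.34 on leaving out 1 replicate. The NAD-consuming median (6.07) was 3.69 with a pseudocount of 10 and 0.58 with at least 30 PBS counts. Summed counts changed sign for NMNAT2 (0.26 with all libraries; -0.38 with total-count scaling, -1.06 without replicate 1, -1.12 with both, and -1.06 to 0.67 on leaving out 1 replicate) and NMNAT3 (0.23; -0.28, -0.46, -0.53, and -0.46 to 0.49). The other 42 alternative values of these medians and counts moved by less than the SD between replicates, or for counts by under 1.5 times. The cause of these changes was not tested. No paired analysis was possible because the PBS library carries no replicate number. With 1 PBS library, PBS has no spread of its own, and the fold change of an sgRNA at 0 PBS counts is set by the pseudocount or floor.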
